A study of Macaca mulatta with 25 samples.

Results

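Transcripts of 10 genes that carry out or control autophagy were followed across rhesus macaque blastocysts. The genes were chosen by name, with earlier results of these data known. Comparisons of these genes with all genes are therefore only a description. They were the cargo receptors SQSTM1 and NBR1, the ATG8 family members GABARAP, GABARAPL1, GABARAPL2 and MAP1LC3B, the initiation genes ULK1, BECN1 and WIPI2, and the transcription factor TFEB. Each symbol matched 1 row of the count table, so they are 10 of 35395 genes, and all 10 were among the 13934 genes that passed the filter on low counts. In autophagy, a double membrane closes around cytoplasm, proteins or organelles and delivers them to the lysosome for breakdown. ATG8 proteins are attached to the lipids of that membrane, and receptors bind them with one end and ubiquitin-tagged cargo with the other, so that cargo is taken in selectively. In mouse embryos autophagy starts soon after fertilization and is needed for development before implantation. Transcript levels do not measure the flow of cargo through the pathway, and the SQSTM1 protein is itself consumed by it.

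The embryos came from females treated from about 2.5 years of age, before puberty, for 5 to 6 years. There were 10 libraries from females with testosterone implants on standard chow (T), in which circulating testosterone was kept at 3 to 5 times the normal level. A further 8 came from females on a high-fat Western-style diet (WSD; 36% fat, 46% carbohydrate and 18% protein) and 2 from females with both treatments (TWSD). The 5 control libraries (C) came from females with cholesterol implants on chow of 15% fat, 59% carbohydrate and 26% protein. Per the labels, all groups went through ovarian stimulation with human gonadotropins, fertilization in vitro with semen of 4 males, culture for up to 8 days and removal of the zona pellucida before freezing. Of 10 females per group at the start, 7 T, 6 WSD, 3 TWSD and all 10 C females could be stimulated. The labels name no mother, father, day or batch for a library and do not say whether 1 library is 1 embryo, so the spread behind each p-value is that between libraries, which may be partly technical. With 10 T libraries from at most 7 females and 8 WSD libraries from at most 6, some libraries share a mother, so p-values that treat libraries as independent may be too small.

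Library totals ran between 14219054 and 35544542 counts, and between 14247 and 21793 genes had a count. Levels are in CPM, the counts divided by library size after TMM scaling. They are not divided by transcript length, so they are compared between libraries and not between genes. All 8 trophectoderm markers in the table reached 1 CPM in every library, but their levels differed. TFAP2A and GATA2 in C 8, C 11, C 12 and T 1 were above the 20 libraries other than these and TWSD 2. So was GATA3 in C 8, C 12 and T 1. CDX2 was below those 20 in C 11, C 12, T 1 and TWSD 2. TFAP2C was below them in C 11, C 12 and TWSD 2, KRT18 in C 11 and C 12, and KRT19 in C 12. Summed primitive endoderm markers (7 genes) were 107.4 CPM in TWSD 2 and 391 to 1479.3 CPM elsewhere. Several libraries stood apart. Summed syncytiotrophoblast markers (11 of 12 listed genes in the table) were 4807 CPM in T 1, 13045.4 CPM in C 8, 4472.2 CPM in C 11 and 9692.7 CPM in C 12, and 118.9 to 1068.1 CPM in the other 21 libraries. CGA, the alpha subunit of chorionic gonadotropin, had 1004.4 CPM in T 1, 3025.2 CPM in C 8, 2400.3 CPM in C 11 and 1072.7 CPM in C 12, and at most 4.24 CPM elsewhere. Summed cumulus and granulosa markers (11 genes) were 2747 CPM in C 8, 2184.8 CPM in C 11 and 1083.3 CPM in C 12, while the other 22 libraries held 75.4 to 858.4 CPM. FSHR was at 0 in all 5 controls and in many treated libraries. CYP11A1, the side-chain cleavage enzyme of steroid synthesis that trophoblast also uses, made up 2618.2 CPM of that sum in C 8, 806.4 CPM in C 11 and 834.4 CPM in C 12, with 748 CPM in T 1 and 809.8 CPM in T 8. Without CYP11A1 the sum was 128.8 CPM in C 8, 1378.4 CPM in C 11 and 249 CPM in C 12. It was 110.3 CPM in T 1, 102.7 CPM in TWSD 2 and 41.2 to 81.9 CPM in the other 20 libraries. Above those 20 were TNFAIP6, VCAN, HAS2 and FOXL2 in C 8, and INHA, TNFAIP6, VCAN, AMHR2 and HAS2 in C 11. In C 12, TNFAIP6, STAR, AMHR2, FOXL2 and AMH were above them and HAS2 was below them. PTX3 was at 0 in C 8, C 11 and C 12, and also in most treated libraries. Summed epiblast markers (6 genes) were 11 CPM in C 11 and 5.96 CPM in C 12, below the 329.3 to 1421.2 CPM of the other 23 libraries, among which C 8 had 352.9 CPM. Summed blood cell markers (6 genes) were 287.5 CPM in C 11 and 101.6 CPM in C 12 and at most 20.4 CPM elsewhere. Most of each sum came from 1 gene: CD14 had 239.9 CPM in C 11 and ALAS2 had 100.8 CPM in C 12. The rest of the list had 47.5 CPM in C 11 and 0.836 CPM in C 12. Without CD14 the 20 libraries other than T 1, TWSD 2, C 8, C 11 and C 12 had 0.228 to 19.5 CPM. In C 11 ALAS2 was also above those 20 libraries. Summed oocyte transcripts (9 genes) were 33.6 CPM in C 8, 9.67 CPM in C 11 and 59.7 CPM in C 12, and 75.7 to 467.7 CPM in the other 22 libraries. Summed integrated stress genes (12 genes) were 13651.8 CPM in TWSD 2, 11386.3 CPM in C 11 and 48890.4 CPM in C 12, and 2186.1 to 6156.7 CPM in the other libraries, C 8 included (3892.3 CPM). In C 11 and C 12 each of the 12 genes was above the 20 libraries other than T 1, TWSD 2, C 8, C 11 and C 12. In C 8 this held for 4 of them, EIF2AK3, DDIT3, ATF3 and HERPUD1. Without HSPA5 the C 8 sum was 1666.3 CPM, against 396.7 to 975.5 CPM in those 20 libraries. In TWSD 2 the sum was mostly HSPA5, a chaperone of the endoplasmic reticulum (12779.2 CPM). There HSPA5, EIF2AK3 and HERPUD1 were above those 20 libraries, and PPP1R15A and ATF3 were below them. The part of these differences in the results below was not tested, and in bulk libraries more cells of a type and more RNA per cell cannot be told apart. Counts of calls among the 10 genes that use C embryos are given with C 8, C 11 and C 12 included and with them left out. Leaving them out keeps C 1 and C 2 as the only controls, and fewer controls also make calls harder to reach.

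Of the 10 genes, 5 fell in T embryos relative to C embryos (SQSTM1, NBR1, GABARAP, ULK1 and WIPI2), 0 rose and the other 5 did not pass, at an adjusted p up to 0.05 (quasi-likelihood test of edgeR, adjusted by the Benjamini-Hochberg method). Over all 13934 genes tested, 3.77% fell in this comparison and 4.11% passed in either direction. The fitted change was below 0 for all 10 genes, against 56.2% of all genes, and its median was -1.16 on the log2 scale, against -0.12 for all genes. No gene had every T library below every C library (0.1% of all genes did). Without C 8, C 11 and C 12, 0 of the 10 passed in edgeR, with 1 at an unadjusted p up to 0.05 (0% and 4.95% of all genes). Without C 12 alone 1 of the 10 passed (0.29% of all genes), and without C 11 alone 6 passed (3.26% of all genes). With all libraries limma voom, which gives less weight to libraries of poor fit, called 0 of the 10, with 4 at an unadjusted p up to 0.05 (0% and 8.91% of all genes).

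In WSD embryos 5 of the 10 genes fell relative to C embryos (SQSTM1, NBR1, GABARAP, WIPI2 and MAP1LC3B), 0 rose and the other 5 did not pass, beside 3.6% of all genes that fell (4.07% in either direction). All 10 changes were below 0 (56.6% of all genes), with a median of -1.41 on the log2 scale against -0.12 for all genes. None of the 10 genes had every WSD library below every C library, and 0.237% of all genes did. This comparison uses the same 5 C libraries as the one with T embryos, so the lists are not independent of each other. Without C 8, C 11 and C 12, 0 of the 10 passed in edgeR, with 2 at an unadjusted p up to 0.05 (0.00742% and 6.67% of all genes). With all libraries limma voom called 0, with 3 at an unadjusted p up to 0.05 (0% and 8.36% of all genes).

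With both treatments, 0 of 10 genes passed in edgeR, where 0.337% of all genes fell and 1.2% passed in either direction. At an unadjusted p up to 0.05, 5 of the 10 were lower in TWSD embryos (SQSTM1, NBR1, GABARAP, ULK1 and TFEB), against 13.3% of all genes that were lower. DESeq2 called these 5, beside 14.3% of all genes, and limma voom called 0, as it did of all genes. Without C 8, C 11 and C 12, 0 of the 10 passed in edgeR, with 0 at an unadjusted p up to 0.05 (0.148% and 15% of all genes). Without TWSD 2, 0 passed, with 3 at an unadjusted p up to 0.05 (0% and 7.03% of all genes), and without TWSD 3, which leaves TWSD 2 alone, TFEB, GABARAP, ULK1 and BECN1 passed, as did 20.1% of all genes. Without C 1 or without C 2, SQSTM1 and GABARAP passed, beside 5.41% and 2.81% of all genes. Of the 10 changes 9 were below 0 (60.5% of all genes), with a median of -1.65 on the log2 scale against -0.38 for all genes. GABARAP, ULK1 and TFEB were lower in both TWSD libraries than in every C library, a separation seen in 6.74% of all genes with these group sizes.

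**Figure D1:**
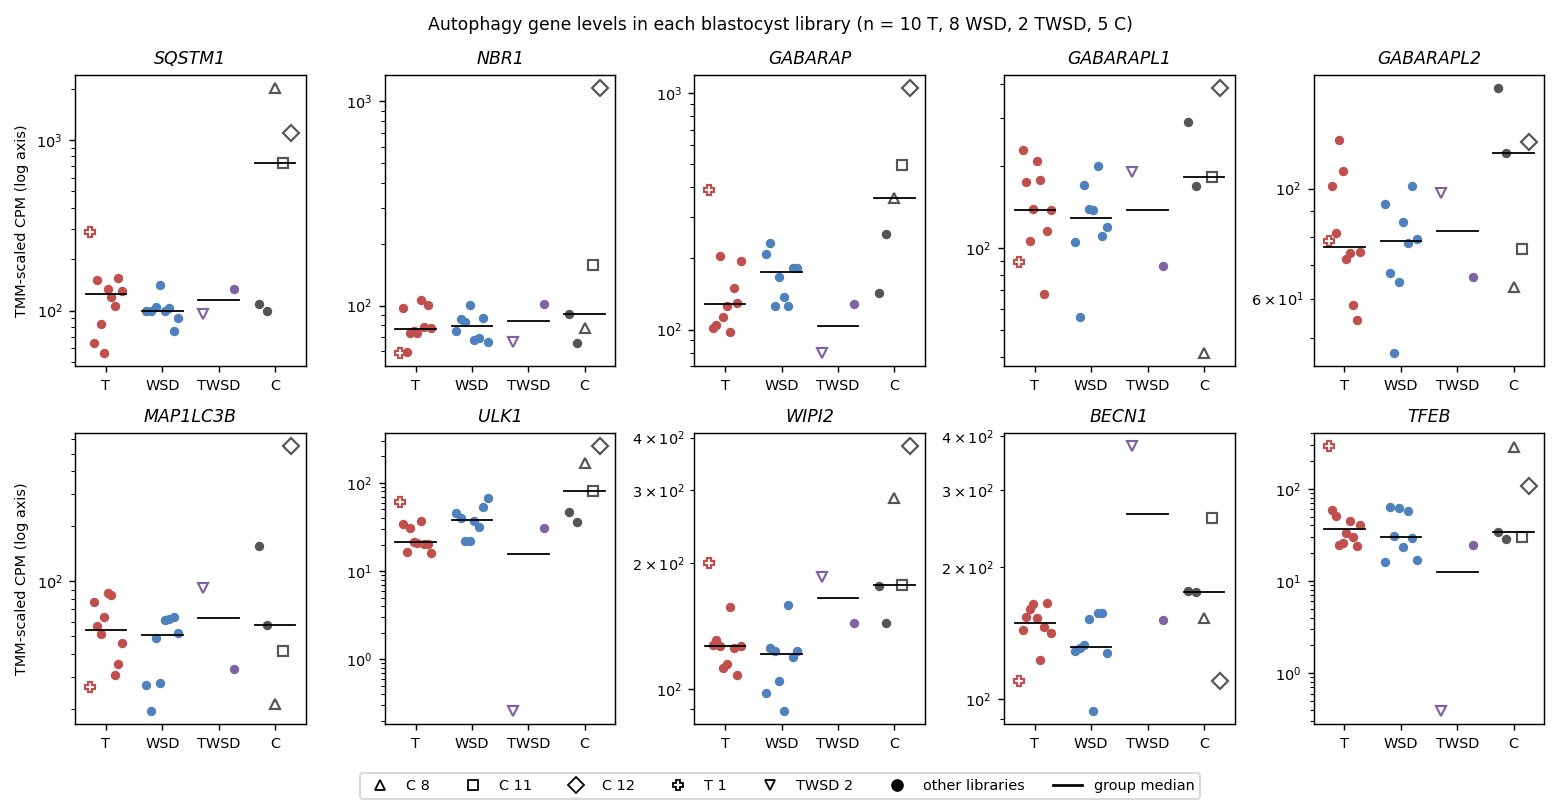
Level of each of the 10 genes in all 25 libraries, in TMM-scaled CPM on a log axis that differs between panels, by group (T, WSD, TWSD, C). Points are libraries, the bar is the group median, and open symbols mark C 8, C 11, C 12, T 1 and TWSD 2; SQSTM1 shows 3 C libraries between 728 and 2020.5 CPM above all other libraries.

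SQSTM1 (ENSMMUG00000021055), also known as p62, is the receptor that links ubiquitin-tagged cargo to ATG8 proteins and that also binds KEAP1, the inhibitor of the stress factor NFE2L2. It had between 56.4 and 289.6 CPM in the T libraries (median 125.9) and between 75.6 and 141 CPM in the WSD libraries (median 99.7). The TWSD libraries had 96 and 134 CPM, and the C libraries had 108.8 (C 1), 99.5 (C 2), 2020.5 (C 8), 728 (C 11) and 1091.1 CPM (C 12). C 8, C 11 and C 12 were higher than every other library, while C 1 and C 2 lay within the range of the T and WSD libraries, so the groups overlapped. Mean levels were 129 ± 65.9 CPM in T (SD, n = 10), 101.7 ± 18.4 CPM in WSD (n = 8), 115 ± 26.9 CPM in TWSD (n = 2) and 809.6 ± 798 CPM in C embryos (n = 5). Both the SD in C and its range, 20.3-fold between the lowest and the highest library, exceeded those of the other groups, where the range was at most 5.13-fold.

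In T embryos SQSTM1 was 6.28-fold lower than in C embryos, a log2 change of -2.65 ± 0.45 (SE) (adjusted p = 0.00311, edgeR). It was 7.96-fold lower in WSD embryos than in C, a log2 change of -2.99 ± 0.48 (adjusted p = 0.00372, edgeR). The estimate in TWSD embryos was of like size, -2.81 ± 0.84, but did not pass with 2 libraries (adjusted p = 0.0777, edgeR). SQSTM1 was the single gene of the 10 that passed in both T and WSD embryos whichever of the 25 libraries was left out, with changes between -2.96 and -1.98 in T and between -3.31 and -2.32 in WSD embryos. With C 8, C 11 and C 12 left out together, its change was 0.35 in T, 0.00 in WSD and 0.17 in TWSD embryos, none of which passed.

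NBR1 (ENSMMUG00000010433), a receptor that, like SQSTM1, binds both ubiquitin and ATG8 proteins, had between 58.5 and 105.9 CPM in T libraries (median 76.6) and between 66 and 101 CPM in WSD libraries (median 79). It had 66 and 101.9 CPM in the TWSD libraries, against 90.6, 65.5, 77.7, 158.2 and 1165.5 CPM in C 1, C 2, C 8, C 11 and C 12. C 12 alone was far above the rest, C 11 was next, and the other 3 controls lay inside the range of the treated libraries. The change was -1.96 ± 0.43 (log2) in T embryos (adjusted p = 0.0123, edgeR) and -1.97 ± 0.46 in WSD embryos (adjusted p = 0.0165, edgeR), and -1.89 ± 0.77 in TWSD embryos did not pass (adjusted p = 0.159). Without C 12 the change in T embryos was -0.29 and in WSD embryos -0.31, and neither passed. SQSTM1 and NBR1 thus differed in which controls were high: C 8 had the highest SQSTM1 level of all 25 libraries and an NBR1 level of 77.7 CPM, close to the median of 78 CPM over all libraries.

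**Figure D2:**
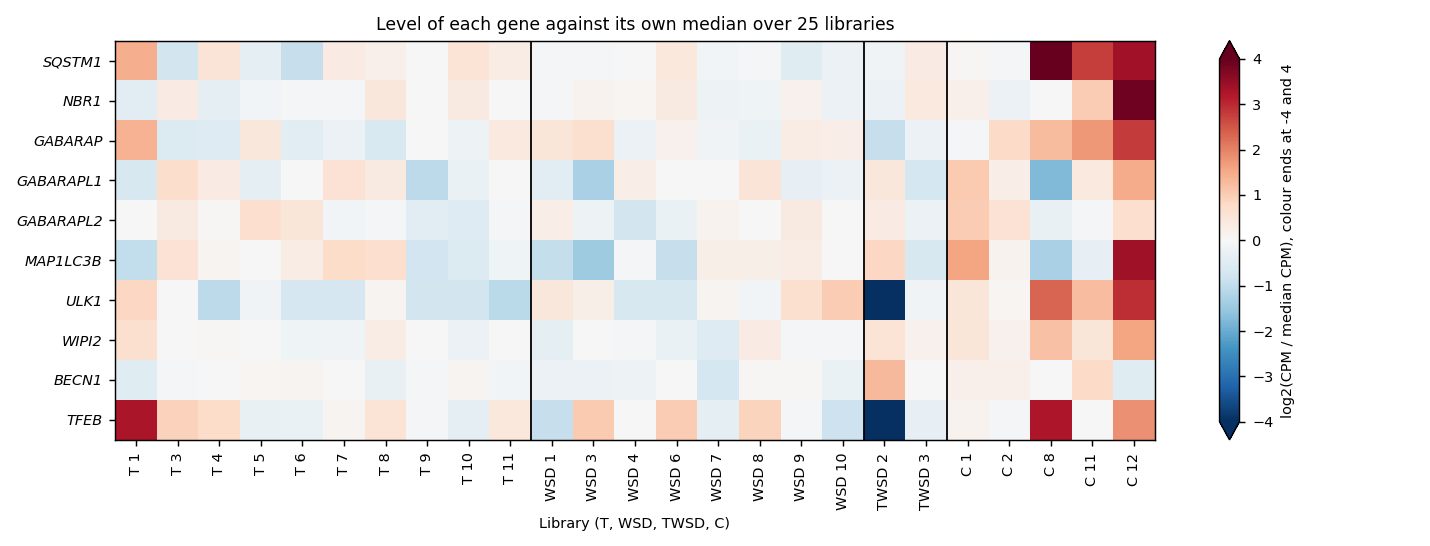
Level of the 10 genes (rows) in the 25 libraries (columns, T, WSD, TWSD and C, divided by lines) as the log2 ratio to the gene's own median over all libraries, with the colour ending at -4 and 4. SQSTM1 is high in C 8, C 11 and C 12, NBR1 and MAP1LC3B are highest in C 12, and ULK1 and TFEB are lowest in TWSD 2.

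Of the ATG8 family, GABARAP fell in T and WSD embryos, MAP1LC3B fell in WSD embryos, and GABARAPL1 and GABARAPL2 passed in neither. The edgeR estimates of all 4 were below 0 in T, WSD and TWSD embryos (in limma voom GABARAPL1 was at 0.18 and MAP1LC3B at 0.08 in T embryos), and differences between the members were not tested. GABARAP (ENSMMUG00000010545), which acts in the later closing and maturation of the autophagosome, had between 97.4 and 390 CPM in T libraries (median 127.8) and between 125.3 and 232.6 CPM in WSD libraries (median 174.7). The TWSD libraries had 79.6 and 128.1 CPM, and the C libraries had 142.1, 253.1, 359.5, 494.3 and 1051.2 CPM in C 1, C 2, C 8, C 11 and C 12. Both TWSD libraries were below all 5 controls, C 1 and C 2 lay within or beside the T and WSD ranges, and T 1, the highest T library, was above C 8. The change was -1.51 ± 0.34 (log2) in T embryos (adjusted p = 0.0139, edgeR) and -1.43 ± 0.36 in WSD embryos (adjusted p = 0.0256, edgeR). In TWSD embryos it was -2.15 ± 0.62 (adjusted p = 0.0701, edgeR). Without C 12 these were -0.96 in T and -0.88 in WSD embryos and did not pass, and the WSD call was also lost without WSD 7.

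MAP1LC3B (ENSMMUG00000050432), which encodes the LC3 protein most used to mark autophagosomes, had between 26.3 and 86.4 CPM in T libraries (median 54) and between 19.4 and 63.8 CPM in WSD libraries (median 50.6). The TWSD libraries had 92.1 and 33.2 CPM, against 156.9, 57.4, 21.3, 41.5 and 551 CPM in C 1, C 2, C 8, C 11 and C 12. C 12 and C 1 were the highest of all libraries, and C 8 was lower than all but 1 library, the reverse of its place for SQSTM1. The change was -1.57 ± 0.49 (log2) in T embryos (adjusted p = 0.0672, edgeR) and -1.87 ± 0.52 in WSD embryos (adjusted p = 0.0413, edgeR). In T embryos it passed without C 2 (-1.82, adjusted p = 0.0279, edgeR), C 8 (-1.86, adjusted p = 0.0224) or C 11 (-1.82, adjusted p = 0.0383), and was -0.30 without C 12. The WSD call was lost when C 12, T 4 or any 1 of the 8 WSD libraries was left out, and without C 12 its change was -0.61. In TWSD embryos the change was -1.40 ± 0.84 (adjusted p = 0.326, edgeR).

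GABARAPL1 (ENSMMUG00000002197), a close relative of GABARAP, had between 67.9 and 228 CPM in T libraries (median 138.5) and between 56.1 and 199.3 CPM in WSD libraries (median 128.6). It had 190.4 and 85.8 CPM in the TWSD libraries and 289.7, 168.5, 41.3, 181.6 and 386.5 CPM in C 1, C 2, C 8, C 11 and C 12. The controls held both the lowest library, C 8, and the highest, C 12. The change was -0.56 ± 0.35 in T (adjusted p = 0.431), -0.72 ± 0.37 in WSD (adjusted p = 0.308) and -0.63 ± 0.57 in TWSD embryos (adjusted p = 0.528, edgeR, log2 scale). GABARAPL2 (ENSMMUG00000051441), also known as GATE-16, had between 54.4 and 125.5 CPM in T libraries (median 76.4) and between 46.6 and 101.1 CPM in WSD libraries (median 78.4). Its TWSD libraries had 98 and 66.2 CPM, and its C libraries had 159.7, 118, 63.2, 75.6 and 124.1 CPM in the same order. For GABARAPL2, C 1 was the highest library and none of C 8, C 11 and C 12 stood above the other 22. The changes were -0.38 ± 0.24, -0.49 ± 0.25 and -0.40 ± 0.37 on the log2 scale in T, WSD and TWSD embryos, with adjusted p of 0.422, 0.297 and 0.546 in edgeR.

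Of the initiation genes, ULK1 fell in T embryos and WIPI2 in both T and WSD embryos, while BECN1 passed in no group. ULK1 (ENSMMUG00000015773), the kinase that starts autophagosome formation and that nutrient signals hold in check, had between 15.9 and 60.9 CPM in T libraries (median 21.2) and between 21.7 and 68.3 CPM in WSD libraries (median 38.3). It had 0.258 CPM (4 counts) in TWSD 2 and 31 CPM in TWSD 3, against 47, 36, 170.3, 80.2 and 262.7 CPM in C 1, C 2, C 8, C 11 and C 12. C 8, C 11 and C 12 were above all other libraries, both TWSD libraries were below all controls, and only T 1 and T 8 among the T libraries exceeded the lowest control. The change was -2.10 ± 0.53 (log2) in T embryos, 4.29-fold lower than in C (adjusted p = 0.0266, edgeR), and it did not pass in WSD (-1.58 ± 0.57, adjusted p = 0.113) or TWSD embryos (-2.93 ± 1.01, adjusted p = 0.114). The T call was lost without C 8 (-1.94) and without C 12 (-1.60). In TWSD embryos the estimate rests on TWSD 2: it was -8.82 without TWSD 3 and -1.95 without TWSD 2.

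WIPI2 (ENSMMUG00000007045), which reads the lipid signal on the growing membrane and brings in the machinery that attaches ATG8 proteins, had between 108.2 and 200.1 CPM in T libraries (median 127.1) and between 88.7 and 159.2 CPM in WSD libraries (median 121.3). The TWSD libraries had 185.7 and 144.5 CPM, and C 1, C 2, C 8, C 11 and C 12 had 177.1, 143.8, 286.8, 177.7 and 381.9 CPM. All but 2 of the T libraries (T 1 and T 8) and all but 1 of the WSD libraries (WSD 8) were below the lowest control. The change was smaller than those of the other called genes, as was its SE: -0.81 ± 0.21 (log2) in T embryos, 1.75-fold lower than in C (adjusted p = 0.0269, edgeR), and -0.99 ± 0.22 in WSD embryos, 1.98-fold lower (adjusted p = 0.0133, edgeR). In TWSD embryos it was -0.50 ± 0.33 (adjusted p = 0.372, edgeR). Without C 12 it was -0.56 in T and -0.75 in WSD embryos, and without C 8 the T call was lost as well, at -0.73.

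BECN1 (ENSMMUG00000029971), a subunit of the lipid kinase complex that makes that signal, had between 110.1 and 166.1 CPM in T libraries (median 149.6) and between 93.8 and 157.7 CPM in WSD libraries (median 131.8). It had 379 CPM in TWSD 2 and 151.8 CPM in TWSD 3, and 176.7, 175.6, 153.1, 259.5 and 110.2 CPM in C 1, C 2, C 8, C 11 and C 12. BECN1 was the steadiest of the 10 in T libraries, with an SD of 12.4% of the mean, and C 12, the highest library for NBR1, GABARAP, MAP1LC3B, ULK1 and WIPI2, was its lowest control. The change was -0.26 ± 0.20 in T (adjusted p = 0.559) and -0.37 ± 0.21 in WSD embryos (adjusted p = 0.372, edgeR, log2 scale). In TWSD embryos it was 0.60 ± 0.30 (adjusted p = 0.247, edgeR), the only 1 of the 10 above 0, and it was -0.19 without TWSD 2 and 1.12 without TWSD 3, where it passed (adjusted p = 0.0181, edgeR).

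TFEB (ENSMMUG00000004690), the transcription factor that switches on lysosome and autophagy genes when nutrient signals drop, had between 23.8 and 291.2 CPM in T libraries (median 36.9) and between 16.1 and 63.2 CPM in WSD libraries (median 29.8). It had 0.387 CPM (6 counts) in TWSD 2 and 24.5 CPM in TWSD 3, against 33.9, 28.7, 286.9, 30.3 and 108.1 CPM in C 1, C 2, C 8, C 11 and C 12. T 1 and C 8 were nearly equal and far above the others, and C 11, which was high for SQSTM1 and GABARAP, was ordinary for TFEB. The change was -0.65 ± 0.68 in T (adjusted p = 0.688), -1.39 ± 0.71 in WSD (adjusted p = 0.303) and -2.97 ± 1.27 in TWSD embryos (adjusted p = 0.176, edgeR, log2 scale). Leaving out C 8 turned the T estimate to 0.31, and leaving out TWSD 2 moved the TWSD estimate to -1.99.

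**Figure D3:**
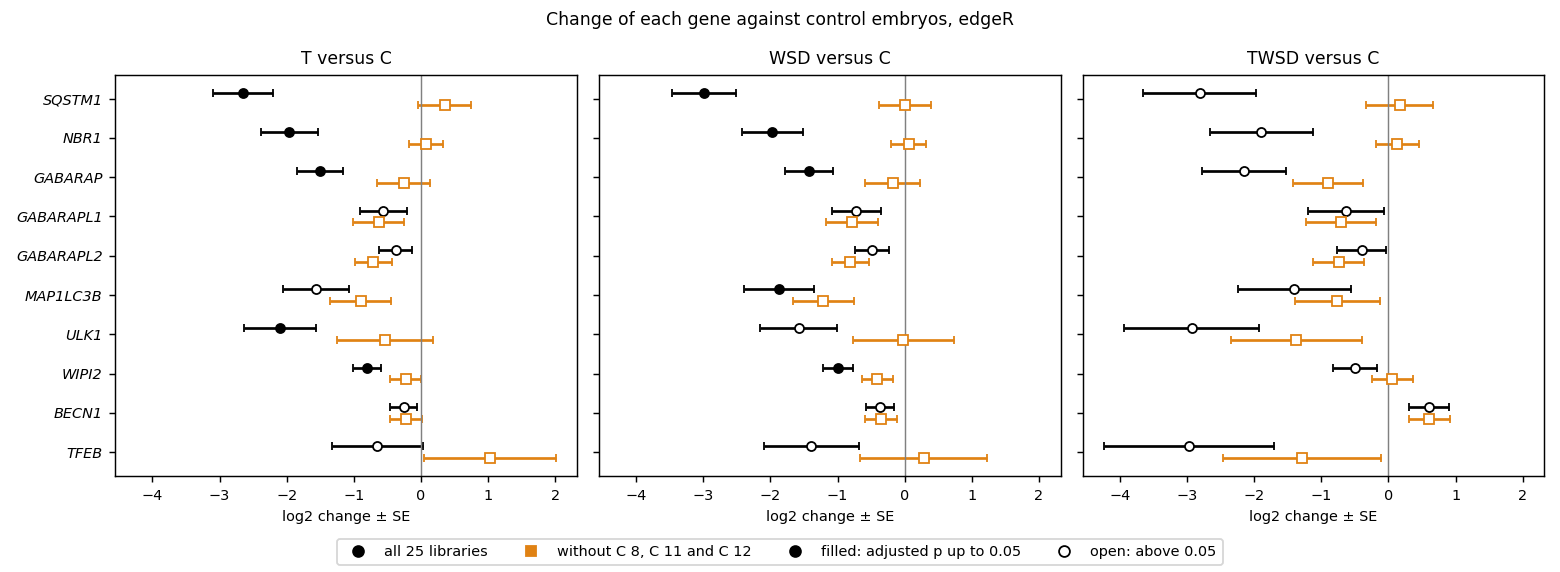
Log2 change of the 10 genes (rows) in T, WSD and TWSD embryos against C embryos with its SE from edgeR, for all 25 libraries (circles) and without C 8, C 11 and C 12 (squares); filled symbols passed an adjusted p up to 0.05. For SQSTM1 the circles lie at -2.65, -2.99 and -2.81 and the squares at 0.35, 0.00 and 0.17.

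T and WSD embryos were next set against each other, a comparison in which no C library decides the level. Of the 10 genes, 0 passed in edgeR, and 0% of all genes passed. At an unadjusted p up to 0.05, 0 of the 10 and 1.7% of all genes were found. DESeq2 and limma voom also called 0 of the 10 (limma voom had 1 at an unadjusted p up to 0.05). The median change was 0.13 on the log2 scale, against 0.01 for all genes. TFEB had the largest estimate, 0.74 ± 0.61 in T against WSD embryos, which was -0.02 without T 1. The SQSTM1 estimate was 0.34 ± 0.40 and that of NBR1 0.01 ± 0.39, values that do not show the groups to be alike.

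Whether the diet acted differently with testosterone was tested as the diet effect with testosterone (TWSD against T) less that without (WSD against C). None of the 10 genes passed in edgeR (0.0718% of all genes did), and 5 had an unadjusted p up to 0.05 against 13.6% of all genes. The estimates were 2.83 ± 0.75 for SQSTM1 (adjusted p = 0.115, edgeR), 1.30 ± 0.36 for WIPI2 (adjusted p = 0.127) and 1.23 ± 0.35 for BECN1 (adjusted p = 0.129), all log2. Those for NBR1 and MAP1LC3B were 2.04 ± 0.74 and 2.04 ± 0.84. DESeq2 called WIPI2, SQSTM1 and BECN1, beside 2.83% of all genes, and limma voom called 0, as it did of all genes. Without C 8, C 11 and C 12, 0 of the 10 passed in edgeR, with 2 at an unadjusted p up to 0.05 (0.0223% and 14.4% of all genes), and the SQSTM1 estimate was -0.17. Without TWSD 2, 0 passed, with 4 at an unadjusted p up to 0.05 (0% and 4.94% of all genes), and without TWSD 3 TFEB, WIPI2, ULK1 and BECN1 passed, as did 16.2% of all genes. SQSTM1 passed without C 1 (0.861% of all genes did), and SQSTM1 and WIPI2 passed without C 2 (0.88% of all genes).

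Beyond the 10 genes, 131 others of the pathway were tested: formation of the autophagosome, attachment of ATG8 proteins, other receptors, fusion with the lysosome, the lysosome, nutrient control and the KEAP1-NFE2L2 axis. In T embryos 12 of them fell and 0 rose (9.16%, against 3.77% of all genes that fell). In WSD embryos 13 fell and 0 rose (9.92%, against 3.6%). In TWSD embryos 0 passed in edgeR, with 33 at an unadjusted p up to 0.05 (25.2%, against 22% of all genes). DESeq2 called 21 there, beside 14.3% of all genes, and limma voom called 0. The median log2 change of the 131 was -0.35 in T, -0.36 in WSD and -0.44 in TWSD embryos, less far below 0 than that of the 10. Without C 12, 1 of the 131 passed in T and 1 in WSD embryos (0.29% and 0.37% of all genes). Without C 8, C 11 and C 12 together 0 passed in either (0% and 0.00742% of all genes), and 0 also with T 1 left out.

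None of the 13 genes that attach ATG8 proteins or encode other family members passed in T or WSD embryos, beside 4.11% and 4.07% of all genes. Their median change was 0.00 and -0.06. The same shares of all genes apply to the lists that follow, and differences between lists were not tested. The list of 13 holds ATG3, ATG5, ATG7, ATG12 and ATG16L1, the enzymes and scaffold of the attachment reaction. Of 22 genes of autophagosome formation, 0 fell in T and 3 in WSD embryos: WDR45, a relative of WIPI2, ATG101, a partner of ULK1, and ATG9B, a membrane lipid scramblase. WDR45 averaged 66.7 ± 12.7 CPM in WSD and 253.6 ± 372.1 CPM in C embryos, with 917.2 CPM in C 12 and no other library above 176.7 CPM. ATG9B averaged 0.186 ± 0.369 CPM in WSD and 36.1 ± 70.7 CPM in C embryos, with 161.8 CPM in C 12 and 18.2 CPM in C 8. ATG101 averaged 77.7 ± 15.2 CPM in WSD and 172 ± 172.2 CPM in C embryos (adjusted p = 0.0406, edgeR).

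Among 17 genes of other selective receptors, TOLLIP and BNIP3L fell in both T and WSD embryos. BNIP3L, the receptor that marks mitochondria for removal, averaged 61.2 ± 31.4 CPM in T, 73.7 ± 28.5 CPM in WSD and 194 ± 138.4 CPM in C embryos. Like SQSTM1, it was higher in C 8 (191.7 CPM), C 11 (224.7 CPM) and C 12 (408.7 CPM) than in any other library, of which T 1 was the highest at 122.2 CPM. Its change was -1.66 ± 0.37 in T (adjusted p = 0.0132) and -1.40 ± 0.40 in WSD embryos (adjusted p = 0.0437, edgeR, log2 scale). TOLLIP, a ubiquitin-binding receptor, changed by -1.87 ± 0.40 in T (adjusted p = 0.0105) and -1.80 ± 0.42 in WSD embryos (adjusted p = 0.0173, edgeR). The receptors OPTN, CALCOCO2 and TAX1BP1 did not pass in T embryos, with log2 changes of -0.23 ± 0.37, 0.19 ± 0.28 and -0.68 ± 0.26.

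Of 25 lysosome genes, 4 fell in T and 4 in WSD embryos, and these were ATP6V0D1, a subunit of the proton pump, MCOLN1, a calcium channel, and the enzymes GLA and NEU1 each time. ATP6V0D1 averaged 250.5 ± 89.6 CPM in T, 259.2 ± 64.9 CPM in WSD and 1201.5 ± 1787.8 CPM in C embryos. It reached 4388.2 CPM in C 12, 598.6 CPM in C 8 and 494.4 CPM in C 11, all above T 1 (470.6 CPM) and the other 21 libraries (148.1 to 378.9 CPM). Its change was -2.26 ± 0.44 in T (adjusted p = 0.00699) and -2.21 ± 0.47 in WSD embryos (adjusted p = 0.0117, edgeR, log2 scale). For GLA and MCOLN1 the high control was C 12 alone, with 1372.1 and 431 CPM, and the other libraries reached at most 111.9 CPM for GLA and 57.6 CPM for MCOLN1. Without C 12 the GLA change was 0.59 in T and 0.52 in WSD embryos. Of 14 fusion genes, VPS11, part of the complexes that tether membranes to the lysosome, fell in T embryos (-1.12 ± 0.28, adjusted p = 0.0232) and in WSD embryos (-1.27 ± 0.30, adjusted p = 0.0165, edgeR), and the SNARE gene YKT6 fell in T embryos (-0.96 ± 0.25, adjusted p = 0.0311).

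Of 29 genes related to TFEB or to nutrient control, RRAGC, a GTPase that reports amino acids at the lysosome, fell in T embryos (-2.53 ± 0.54, adjusted p = 0.0109) and in WSD embryos (-3.07 ± 0.59, adjusted p = 0.00693, edgeR, log2 scale). It averaged 17.6 ± 6.96 CPM in T, 12.1 ± 3.85 CPM in WSD and 101.6 ± 180.4 CPM in C embryos, with 424.2 CPM in C 12 and at most 35.5 CPM elsewhere. Its relative RRAGB, at 3.01 ± 1.91 CPM in T and 38 ± 75.3 CPM in C embryos, and the TFEB relative MITF, at 8.7 ± 4.49 and 42.8 ± 47.7 CPM in the same groups, also fell in T embryos, and PRKAB1, a subunit of the AMP-activated kinase, fell in WSD embryos. MITF had 120.3 CPM in C 8, 34.9 CPM in C 11 and 50.6 CPM in C 12, above all other libraries. In the KEAP1-NFE2L2 axis, which SQSTM1 touches by binding KEAP1, 1 of 11 genes fell in each comparison: NQO1, a quinone reductase. NQO1 had 322.2 CPM in C 11 and at most 26.8 CPM in any other library, and without C 11 its change was -0.42 in T and -0.81 in WSD embryos and did not pass. KEAP1 and NFE2L2 themselves changed by -0.09 ± 0.39 and -0.39 ± 0.33 in T embryos.

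The integrated stress genes, a list of 12 kept apart from the 131, are given as context because C 11 and C 12, and also TWSD 2, had high sums. Of these, 9 fell in T and 9 in WSD embryos, beside 3.77% and 3.6% of all genes that fell. Median log2 changes were -3.30 and -3.06. How many would pass without C 8, C 11 and C 12 was not counted for this list. DDIT3, a factor made under lasting stress of the endoplasmic reticulum, had 67.3 CPM in T 1, 267.8 CPM in C 8, 301.8 CPM in C 11 and 8641.8 CPM in C 12, and at most 43 CPM in the other 21 libraries. In C 8, EIF2AK3, ATF3 and HERPUD1 were also above the 20 libraries other than T 1, TWSD 2, C 8, C 11 and C 12. HSPA5 (2226 CPM), ATF4 (194.1 CPM), XBP1 (261.2 CPM), TRIB3 (9.2 CPM) and CHAC1 (1.58 CPM) in C 8 lay within the range of the treated libraries. The part of this list in the autophagy result was not tested.

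**Figure D4:**
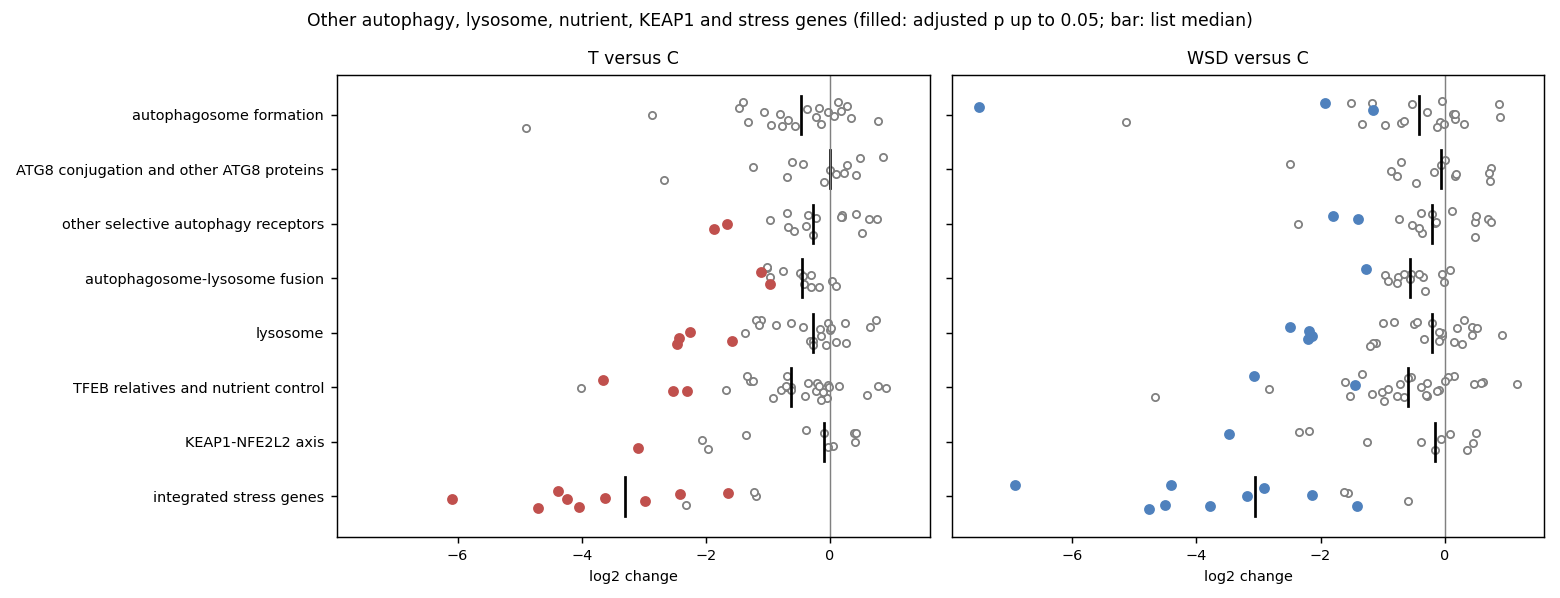
Log2 change of the other pathway genes and of the integrated stress genes in T embryos (left) and WSD embryos (right) against C embryos, 1 point per gene by list, with a bar at the list median and filled points for an adjusted p up to 0.05 in edgeR. Most pathway genes lie near 0 with a few far below, while the integrated stress genes have medians of -3.30 and -3.06.

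How the 10 genes varied together was described by Pearson's r of log2 CPM over the 25 libraries, which share scaling, groups and the libraries that stand apart. The closest pair was GABARAPL1 and MAP1LC3B (r = 0.844, Spearman's rho = 0.824), and without C 8, C 11 and C 12 r was 0.852 over 22 libraries. GABARAPL2 and MAP1LC3B had r = 0.604, and 0.559 without those 3 controls. GABARAP ran the other way: with MAP1LC3B its rho was -0.457, r was 0.129 with all libraries and -0.564 without the 3 controls. The link of SQSTM1 with GABARAP (r = 0.751) and with WIPI2 (r = 0.775) was 0.352 and 0.327 without the 3 controls. ULK1 and TFEB had r = 0.80 but rho = 0.265, and r was 0.465 without TWSD 2, where both were lowest.

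**Figure D5:**
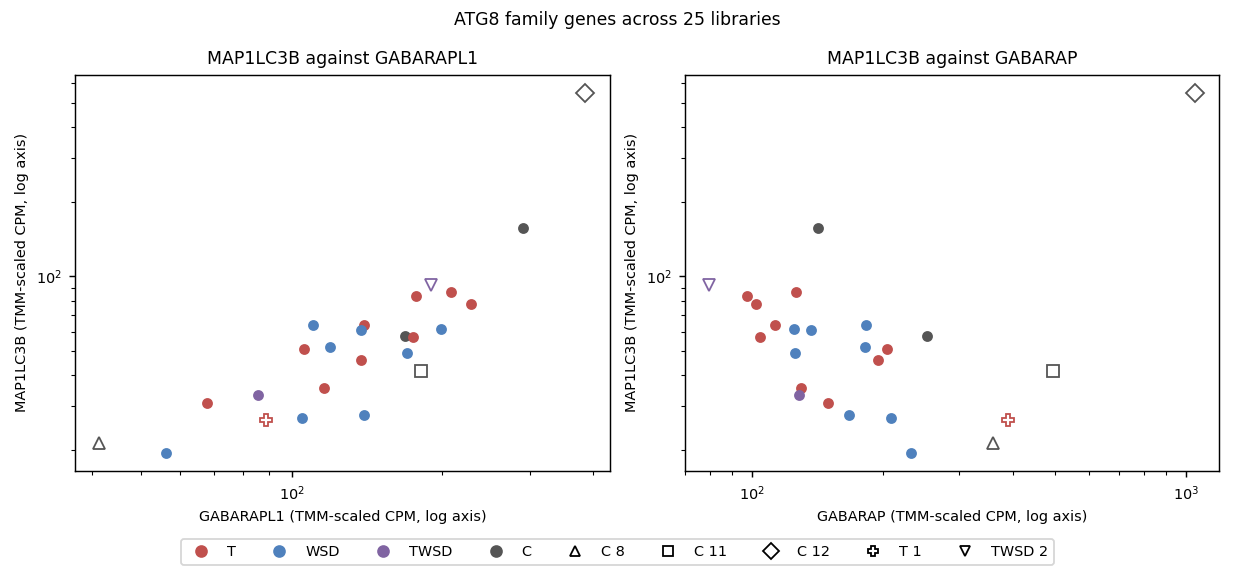
Level of MAP1LC3B against GABARAPL1 (left) and against GABARAP (right) in 25 libraries, in TMM-scaled CPM on log axes, coloured by group with the libraries that stand apart as open symbols. MAP1LC3B follows GABARAPL1 across groups (r = 0.844), while against GABARAP most libraries run downward and C 12 lies at the top right (r = 0.129).

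Among all named genes tested, the 5 most like SQSTM1 over the 25 libraries were CEBPB (r = 0.921), VSIG1 (0.912), IQCD (0.897), KALRN (0.89) and TCP11L2 (0.889), and without the 3 controls these values lay between 0.488 and 0.651. Those most like NBR1 were KHDC4, ZNF394, BRD2, CCNL1 and RSRP1 (r between 0.897 and 0.917), but between 0.069 and 0.444 without C 12. For GABARAP they were UBE2H, BNIP3L, SLC40A1, FTL and REEP5, of which UBE2H kept r = 0.848 without the 3 controls, against 0.913 with them. For MAP1LC3B they were BAG1, ARL16, JMJD6, PSMC4 and SLC35B1, and ARL16 had r = 0.889, or 0.826 without the 3 controls. ZRANB1, HDAC5, JUND, KANSL1 and ARID1B were most like ULK1 (r between 0.924 and 0.954, and between 0.763 and 0.862 without TWSD 2). DDX6, GAR1, SENP3, PCGF1 and PHF23 were most like WIPI2 (r between 0.879 and 0.90).

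The strand setting of the counting is not given in the sources used here, so reads of overlapping genes cannot be told apart. In the RefSeq annotation of another build, SQSTM1 overlaps MGAT4B, NBR1 overlaps BRCA1, GABARAPL2 overlaps ADAT1 and BECN1 overlaps CNTD1. MGAT4B, a glycosyltransferase gene, had 492.1 CPM in C 8, 134.8 CPM in C 11 and 65.3 CPM in C 12, against 0.515 to 63.6 CPM in the other libraries. SQSTM1 had 2020.5 CPM in C 8, 728 CPM in C 11 and 1091.1 CPM in C 12. The part of overlapping reads in these levels was not tested. BRCA1 had 24.2 CPM in C 12, where NBR1 had 1165.5 CPM.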

How the data were processed

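RNA of 25 blastocyst libraries was sequenced, and raw counts of reads for 35395 genes were deposited by the authors in 1 table. FastQC 0.11.8, Trimmomatic 0.39, STAR 2.7.0 and the build Mmul_10 were used per the submitters' processing notes, with counter, annotation release and strand setting not given in the sources used here. Symbols were matched for 24173 identifiers. The 13934 genes that reached 1 CPM in 5 or more libraries were fitted with edgeR 4.0.16 (R 4.3.3, TMM factors, robust quasi-likelihood F-test) on all 25 libraries with group as the only term. Benjamini-Hochberg adjustment ran over all genes tested, and 0.05 was the threshold. The coefficient of biological variation was 0.9, and 1 CPM is 14.2 counts in the shallowest library. DESeq2 1.42.0, limma 3.58.1 (voom with quality weights), other scalings and filters, a replicate block and left-out libraries were tried as alternatives. The set without C 8, C 11, C 12 and T 1 was chosen after seeing the data. No library repeated another: the smallest chi-square per gene was 65.5 over 84 pairs within groups. Of the other pathway genes the text names, per comparison, all that passed or the 10 with the smallest p, and any others were chosen after their values were seen. The 10 genes, the gene lists and the libraries called apart were chosen with earlier results of these data known. The fit was tested on simulated data for T against C, with 50 changed genes at each size. It called 34 at a true log2 change of -4, 23 at -2, 19 at 2 and 25 at 4, and it called 3 unchanged genes. A gene that did not pass may therefore still differ.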

Additional observations from a re-analysis of the deposited data

Results flagged for a closer look

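Of 30 groups of libraries checked for a single library far from the rest (10 genes in T, WSD and C), 7 had one. The limit used gives about 1 in 20 by chance only for independent groups with normally distributed levels. Raw CPM were checked and the 10 genes share libraries, so the count is only a description. T 1 was the highest T library for 4 genes: SQSTM1 at 289.6 CPM (next 154.3 CPM), GABARAP at 390 CPM (next 204.4 CPM), ULK1 at 60.9 CPM (next 36.9 CPM) and TFEB at 291.2 CPM (next 58.4 CPM). C 12 was the highest control for NBR1 at 1165.5 CPM (next 158.2 CPM) and for MAP1LC3B at 551 CPM (next 156.9 CPM). WSD 6 was the highest WSD library for SQSTM1 at 141 CPM (next 105.1 CPM).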

How the results depend on the processing

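The number of the 10 genes called in T and in WSD embryos against C was 3 and 3 with library totals as scaling (1.72% and 2.3% of all genes). It was 0 and 0 with limma voom (0% of all genes in each), and 2 and 1 with only the groups compared in the fit (0.818% and 0.215% of all genes). Without C 8, C 11 and C 12 it was 0 and 0, with T 1 (0% and 0.00742% of all genes) or without it (0% and 0.00753%). With DESeq2, 5 passed in TWSD embryos and 3 for the interaction (14.3% and 2.83% of all genes), and without T 1, 1 passed in TWSD embryos (2.47% of all genes). Of the 131 other pathway genes, library totals left 6 in T and 8 in WSD embryos (1.72% and 2.3% of all genes). No filter on low counts left 8 in WSD embryos (1.4% of all genes), and DESeq2 called 21 in TWSD embryos (14.3% of all genes). With voom, only the groups compared and leaving out C 8, C 11 and C 12 (with or without T 1), 0 passed in T and WSD embryos. Leaving out 1 library at a time gave 1 to 6 of the 10 in T, 1 to 6 in WSD, 0 to 4 in TWSD, 0 to 4 for the interaction and 0 to 0 for T against WSD; of the 131 it gave 1 to 27, 1 to 23, 0 to 26 and 0 to 0. The lowest counts in T and WSD came without C 12, and the 4 in TWSD without TWSD 3, which leaves a lone library assumed to vary like the others. Of all genes, 0.29% passed in T and 0.37% in WSD embryos without C 12. Library totals moved the median of all genes to 0.02 in T and -0.01 in WSD embryos, and DESeq2's scaling to -0.19 in both.

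Replicate numbers in the titles did not pair the libraries: of 16 pairs with the same number, 3 had a correlation of deviations over 0.1, and the range was -0.376 to 0.222. With the replicate block, 0 of the 10, 0 of the 131 and 0% of all genes passed in T and in WSD embryos. With this block GABARAPL1 in T was 0.01, NBR1 in T against WSD -0.02, GABARAPL1 for the interaction -0.20, MCOLN1 0.16 in T and 0.46 in WSD, and GLA 0.74 in T and 0.72 in WSD.

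These log2 changes turned sign elsewhere. With voom, GABARAPL1 in T was 0.18, MAP1LC3B in T 0.08, GLA 0.15 in T and 0.04 in WSD, MCOLN1 in WSD 0.19, and for the interaction GABARAPL1 -0.26, MAP1LC3B -0.02 and ULK1 -0.94. Without C 8, C 11 and C 12, the values in T were 0.35 for SQSTM1, 0.07 for NBR1, 1.03 for TFEB, 1.11 for MITF, 0.76 for GLA and 0.32 for NEU1. In WSD they were 0.06 for NBR1, 0.28 for TFEB, 0.69 for GLA, 0.06 for BNIP3L and 0.01 for ATP6V0D1, in TWSD 0.17 for SQSTM1, 0.13 for NBR1 and 0.06 for WIPI2, and for the interaction -0.17 for SQSTM1, -0.46 for GABARAP and -0.80 for ULK1. With T 1 left out too, they were 0.12 for SQSTM1, 0.10 for NBR1, 0.25 for TFEB, 0.87 for MITF and 0.59 for GLA in T; 0.04 for NBR1, 0.27 for TFEB, 0.67 for GLA and 0.04 for BNIP3L in WSD; 0.17 for SQSTM1, 0.13 for NBR1 and 0.06 for WIPI2 in TWSD; -0.01 for TFEB in T against WSD; and -0.17 for GABARAP and -0.56 for ULK1 for the interaction. Without T 1, TFEB in T against WSD was -0.02. Leaving out 1 library at a time gave -1.40 to 0.31 for TFEB in T, -2.77 to 0.59 for GLA in T, -2.84 to 0.52 for GLA in WSD, -2.47 to 0.15 for MCOLN1 in WSD, -0.19 to 1.12 for BECN1 in TWSD, and, in T against WSD, -0.05 to 0.07 for NBR1 and -0.02 to 0.87 for TFEB. For the interaction it gave -0.03 to 1.12 for GABARAPL1, -5.14 to 1.75 for ULK1 and -5.92 to 0.06 for TFEB, with each end reached without TWSD 2 or TWSD 3. The cause was not tested.

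For single genes DESeq2 gave no adjusted p for 12 values.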
